A study of Mus musculus with 15 samples.

Results

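The genes described here are 10 core components of the NF-kB pathway: the 5 subunits Nfkb1, Nfkb2, Rel, Rela and Relb, the IkB family members Nfkbia, Nfkbie and Nfkbiz, and the NIK arm genes Map3k14 and Birc3. They were taken by symbol as a list, and all 10 are among the 41819 genes of the pterosin B table, where all 10 passed the filter on low counts. None of the 10 has a row in the Sik3 knockout table of 2275 genes.

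NF-kB proteins are dimeric transcription factors that IkB proteins hold in the cytoplasm. In the canonical route a kinase complex marks IkB for degradation and sets free dimers of RelA or c-Rel with p50. In the noncanonical route the kinase NIK, which TRAF and cIAP proteins keep low, drives the processing of p100 to p52, the partner of RelB. RANKL, the cytokine that turns bone marrow macrophages into bone-resorbing osteoclasts, engages both routes through its receptor RANK.

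RNA was sequenced from mouse bone marrow monocytes in 5 groups of 3 libraries, all of strain C57BL/6J per the labels. SCRP cells received M-CSF, RANKL and pterosin B, a fern compound used against SIK3 signalling, at 300 µM. SCR cells received M-CSF and RANKL, and SC cells received vehicle and M-CSF without RANKL. M-CSF was at 50 ng/ml in these groups and was given alone for the first 2 days, and RANKL followed at 50 ng/ml for 3 days in SCRP and SCR. How long SC cells were kept after the first 2 days is not given in the sources used here. KO cells are labelled as an osteoclast-specific conditional Sik3 knockout, with Cre from the Rank locus (Rank_Cre/+; Sik3_flox/flox), and WT cells as wild type control, where the labels do not say whether they carried Rank_Cre. Both KO and WT cells had M-CSF for 2 days and then RANKL with M-CSF for 2 days. The labels do not say which libraries came from separate animals or whether animals were pooled, and the p-values then speak only of the variation between these libraries, which may be technical. No age and no batch is labelled, and the series text speaks of embryonic livers where every sample label names bone marrow.

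Total exon reads ranged from 37138648 to 49927591 over the 9 libraries of the pterosin B experiment. Levels are given as CPM, exon reads scaled to the library total after TMM, and levels are compared between genes as RPKM, which also divides by exon length. A gene was called higher or lower at a Benjamini-Hochberg adjusted p under 0.05 in edgeR's quasi-likelihood test over all 13650 genes tested, two-sided, and every adjusted p below for exon reads comes from this test unless another source is named. All 8 monocyte and macrophage markers were above 1 CPM in each group. Their summed level was 11172 to 12754 CPM in SCRP, 7860 to 9080 CPM in SCR and 22982 to 25344 CPM in SC. Most of this sum was Lyz2, at a mean of 8978, 5555 and 17452 CPM in SCRP, SCR and SC. In SCRP the means of Cd68 (575 CPM, against 621 in SCR) and Itgam (589 against 637) were lower than in SCR. The means of the other markers were higher, Csf1r only slightly (1031 against 1018). The summed level of 8 osteoclast markers was 515 to 652 CPM in SCRP, 3641 to 3775 CPM in SCR and 62.2 to 65.1 CPM in SC. Among these markers Calcr had no read in SC. Dendritic cell markers summed to 2.09 to 3.42 CPM in SCRP, 3.80 to 4.84 CPM in SCR and 2.64 to 4.33 CPM in SC, and single markers differed in direction. Ccr7 was at 0.134, 0.0404 and 0.0146 CPM in SCRP, SCR and SC, and Cd209a at 0.0553, 0.401 and 0.899 CPM. Neutrophil markers summed to 11.7 to 15.2 CPM in SCRP, 52.6 to 64.0 CPM in SCR and 100.4 to 113 CPM in SC. Mmp8 alone, at a mean of 1.84, 37.6 and 75.4 CPM in SCRP, SCR and SC, made up most of the sum in SCR and SC. T and NK cell markers stayed at or under 0.334 CPM in every library, and stromal markers lay between 10.9 and 19.2 CPM. Ly6g had no read in SCRP and SCR, and Cd3e and Cd3g had none in any group. In these bulk samples fewer cells of a type and less RNA per cell cannot be told apart. The part that these marker shifts have in the results below was not tested.

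Most of the 10 genes were higher with RANKL. The culture time of SC cells after the first 2 days is not given, so SCR and SCRP cells may differ from SC cells in culture time too. RANKL and culture time then cannot be told apart, and a change with RANKL means SCR against SC in what follows. With RANKL (SCR against SC), 8 of the 10 were higher, 1 was lower (Nfkbiz) and 1 did not pass (Rela), where 30.7% of all genes tested were called higher, 28.4% lower and 59.1% either way. The median log2 fold change was 1.05 over the 10 genes and 0.02 over all genes tested. The libraries of the 2 groups did not overlap for any of the 10 genes, where 65.4% of all genes tested had no overlap. The strongest rises were those of Birc3 and Nfkb2, both tied to the noncanonical route, and Rela, Nfkb1 and Nfkbiz moved least.

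**Figure D1:**
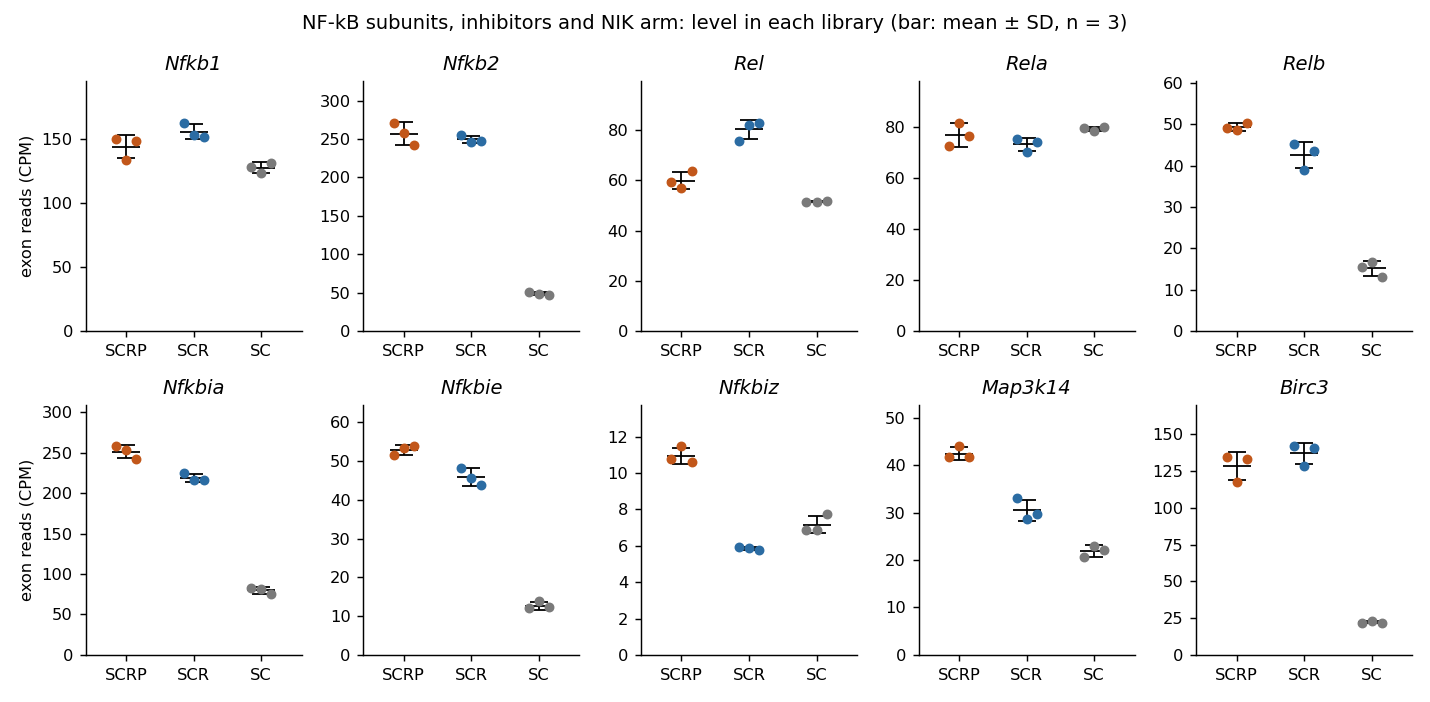
Exon reads in CPM of each of the 10 genes in each library (points) for SCRP, SCR and SC, with the mean and SD of 3 libraries as bars and axes that start at 0. Nfkb2 and Birc3 stand near the same level in SCRP and SCR and far above SC, while Rela differs little between the 3 groups and Nfkbiz is highest in SCRP.

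Nfkb2, which encodes the precursor p100 and its product p52, had 255, 246 and 247 CPM in SCR libraries, against 51.2, 48.5 and 47.7 CPM in SC libraries. Every SCR library stood far above every SC library, and Nfkb2 rose 5.08-fold (log2 fold change 2.34, SE 0.05, adjusted p = 2.38e-15). Relb, the partner of p52, had 45.3, 39.0 and 43.5 CPM in SCR, against 15.5, 16.8 and 13.2 CPM in SC. The groups were well apart, and Relb rose 2.81-fold (log2 fold change 1.49, SE 0.09, adjusted p = 1.69e-10). Rel, which encodes c-Rel, had 75.7, 82.1 and 82.9 CPM in SCR, against 51.5, 51.3 and 51.7 CPM in SC. The 3 SC libraries were almost equal, and Rel rose 1.56-fold (log2 fold change 0.64, SE 0.06, adjusted p = 4.57e-08). Nfkb1, which encodes the precursor p105 and its product p50, had 162, 153 and 151 CPM in SCR, against 128, 123 and 131 CPM in SC. All SCR libraries were above all SC libraries by a small margin, a rise of 1.22-fold (log2 fold change 0.29, SE 0.05, adjusted p = 1.71e-04). Rela, which encodes the p65 subunit, had 75.2, 70.3 and 74.1 CPM in SCR, against 79.5, 78.4 and 79.8 CPM in SC. The SCR libraries lay below the SC libraries, but the difference did not pass (adjusted p = 0.0769), and the 95% interval of the fold was 0.855 to 0.999.

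Nfkbia encodes IkBalpha, the classical inhibitor that NF-kB itself induces, and it had 225, 216 and 217 CPM in SCR, against 83.1, 81.0 and 75.0 CPM in SC. All SCR libraries were far above SC, and Nfkbia rose 2.75-fold (log2 fold change 1.46, SE 0.05, adjusted p = 2.28e-13). Nfkbie, which encodes IkBepsilon, had 48.2, 45.6 and 43.7 CPM in SCR, against 12.0, 13.9 and 12.3 CPM in SC. The groups were as clearly apart, and Nfkbie rose 3.61-fold (log2 fold change 1.85, SE 0.07, adjusted p = 1.51e-12). Nfkbiz, which encodes the nuclear protein IkBzeta, was the lowest of the 10 genes, at 5.96, 5.86 and 5.79 CPM in SCR, against 6.88, 6.90 and 7.72 CPM in SC. The 3 SCR libraries were close together and just below SC, a fold of 0.819 (log2 fold change -0.29, SE 0.12, adjusted p = 0.0431). This call was lost with DESeq2 (adjusted p = 0.0838), without a filter (0.125), with only the 2 groups fitted (0.0787), with the replicate numbers as a block (0.0572), and without SC replicate 2 or 3 or SCR replicate 1, 2 or 3 (edgeR adjusted p between 0.0528 and 0.150).

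In the NIK arm, Birc3, which encodes the ubiquitin ligase cIAP2, had 142, 129 and 141 CPM in SCR, against 22.0, 22.9 and 21.8 CPM in SC. The rise of 6.17-fold (log2 fold change 2.62, SE 0.06, adjusted p = 6.80e-15) was the largest among the 10 genes. Map3k14, which encodes the kinase NIK, had 33.0, 28.7 and 29.8 CPM in SCR, against 20.65, 23.05 and 22.18 CPM in SC. The groups did not overlap, and Map3k14 rose 1.39-fold (log2 fold change 0.48, SE 0.07, adjusted p = 2.96e-05).

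In the files' annotation on GRCm38 the subunit genes lie at chr3:135584655-135691547 (Nfkb1), chr19:46304320-46312385 (Nfkb2), chr11:23736847-23770970 (Rel), chr19:5637483-5648130 (Rela) and chr7:19606217-19629438 (Relb). The IkB genes lie at chr12:55489410-55492647 (Nfkbia), chr17:45555703-45563169 (Nfkbie) and chr16:55811375-55838899 (Nfkbiz), and the NIK arm genes at chr11:103219762-103267472 (Map3k14) and chr9:7848699-7873186 (Birc3). Windows around the annotated starts of the 10 genes were looked up because NF-kB dimers bind kappa B sites and several of these genes are textbook NF-kB targets. RefSeq windows on GRCm38.p6, from 250 bases before to 50 bases after a start, were found for 7 of the 10 genes (9 windows, of which 3 belong to Nfkb2), and Nfkb1, Relb and Nfkbiz had none. The 10-letter kappa B consensus, searched on both strands, was found in 6 of the 9 windows, in 4 genes: Nfkb2, Rel, Nfkbia and Nfkbie. Of the 3 Nfkb2 windows, the 2 that are not printed here overlap each other and share 1 match, which is counted in both. The consensus was found in 1480 of all 32851 mouse windows (4.51%). The looser motif GGGNNNNNCC, which every consensus match also fits on one strand or the other, was found in 16686 of them (50.8%) and in all 9 windows of these genes. The Rela, Map3k14 and Birc3 windows held no consensus match. The first Nfkb2 window, the Rel, Nfkbia and Nfkbie windows and, for the gene with the largest rise, the Birc3 window follow, 5′ to 3′ on the gene's strand, with consensus matches in capitals.
Nfkb2 (chr19:46304487-46304786, plus strand): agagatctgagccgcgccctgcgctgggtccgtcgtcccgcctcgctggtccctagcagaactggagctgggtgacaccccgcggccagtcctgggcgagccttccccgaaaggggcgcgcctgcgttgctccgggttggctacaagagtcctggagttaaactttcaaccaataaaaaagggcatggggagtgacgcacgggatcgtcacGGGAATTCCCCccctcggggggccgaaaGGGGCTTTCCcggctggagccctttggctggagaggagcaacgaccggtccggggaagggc
Rel (chr11:23770920-23771219, minus strand): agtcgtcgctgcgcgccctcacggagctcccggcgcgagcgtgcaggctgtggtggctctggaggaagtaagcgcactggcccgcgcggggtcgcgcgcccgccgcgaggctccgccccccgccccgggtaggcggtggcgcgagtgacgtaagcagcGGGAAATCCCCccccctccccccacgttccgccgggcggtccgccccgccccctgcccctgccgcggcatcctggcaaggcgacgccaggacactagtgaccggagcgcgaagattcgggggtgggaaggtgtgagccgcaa
Nfkbia (chr12:55492598-55492897, minus strand): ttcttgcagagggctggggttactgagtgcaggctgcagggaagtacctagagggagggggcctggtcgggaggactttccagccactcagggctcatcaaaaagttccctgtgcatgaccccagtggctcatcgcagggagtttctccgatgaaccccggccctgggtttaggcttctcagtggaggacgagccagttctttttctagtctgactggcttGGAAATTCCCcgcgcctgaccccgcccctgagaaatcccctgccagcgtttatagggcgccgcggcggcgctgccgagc
Nfkbie (chr17:45555450-45555749, plus strand): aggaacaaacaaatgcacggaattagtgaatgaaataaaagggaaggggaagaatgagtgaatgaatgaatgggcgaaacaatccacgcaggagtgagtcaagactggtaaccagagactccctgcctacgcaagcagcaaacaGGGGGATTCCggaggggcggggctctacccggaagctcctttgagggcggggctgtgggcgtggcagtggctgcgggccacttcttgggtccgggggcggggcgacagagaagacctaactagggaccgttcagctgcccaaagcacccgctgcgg
Birc3 (chr9:7873121-7873420, minus strand): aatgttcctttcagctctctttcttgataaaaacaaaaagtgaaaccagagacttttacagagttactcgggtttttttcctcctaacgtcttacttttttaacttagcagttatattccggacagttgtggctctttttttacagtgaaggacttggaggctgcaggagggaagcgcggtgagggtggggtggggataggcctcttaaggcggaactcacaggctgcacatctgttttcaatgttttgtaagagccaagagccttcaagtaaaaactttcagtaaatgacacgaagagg
The 2 stretches in the Nfkb2 window begin 39 and 11 bases before the start, the one in Rel 92, the one in Nfkbia 29 and the one in Nfkbie 106 bases before it. A match is a run of letters and was not tested for binding in these cells.

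Pterosin B given with RANKL raised Map3k14, Nfkbia and Nfkbiz, lowered Rel, and did not move Nfkb2 or Birc3 past the threshold. In SCRP against SCR, 5 of the 10 genes were higher (Relb, Nfkbia, Nfkbie, Nfkbiz and Map3k14), 1 was lower (Rel) and 4 did not pass (Nfkb1, Nfkb2, Rela and Birc3). Without SCR replicate 2 or 3 or SCRP replicate 2 or 3, the genes called higher were 3, not 5, as Nfkbie and Relb were lost. Among all genes tested 17.9% were called higher, 19.9% lower and 37.8% either way. The median log2 fold change was 0.13 over the 10 genes and 0.00 over all genes tested. The libraries did not overlap for 7 of the 10 genes, where 49.3% of all genes tested had no overlap. The largest change was 1.86-fold (Nfkbiz), a size that 5 of the 10 genes exceeded with RANKL.

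**Figure D2:**
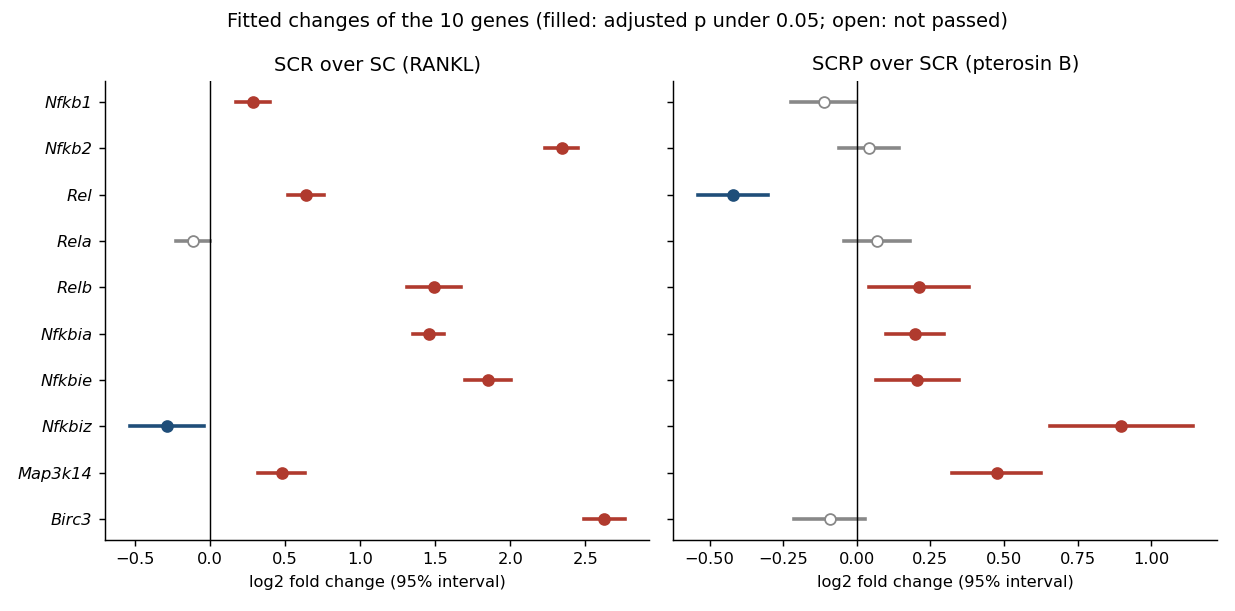
Log2 fold changes of the 10 genes with 95% intervals from the fit of 9 libraries, for SCR over SC and for SCRP over SCR, each on its own axis. Birc3 (2.62) and Nfkb2 (2.34) lead with RANKL, while with pterosin B Nfkbiz (0.90) and Map3k14 (0.47) lead and Rel (-0.42) is the gene below 0 that passed.

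Nfkbiz had 10.8, 11.5 and 10.6 CPM in SCRP, against 5.96, 5.86 and 5.79 CPM in SCR. All SCRP libraries were well above SCR, and Nfkbiz rose 1.86-fold (log2 fold change 0.90, SE 0.11, adjusted p = 1.14e-05). Map3k14 had 41.7, 44.0 and 41.7 CPM in SCRP, against 33.0, 28.7 and 29.8 CPM in SCR. The groups were apart, and Map3k14 rose 1.39-fold (log2 fold change 0.47, SE 0.07, adjusted p = 6.30e-05). Nfkbia had 258, 254 and 243 CPM in SCRP, against 225, 216 and 217 CPM in SCR, a small rise of 1.15-fold (log2 fold change 0.20, SE 0.05, adjusted p = 0.00294).

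Rel was the gene that fell, with 59.3, 56.8 and 63.7 CPM in SCRP, against 75.7, 82.1 and 82.9 CPM in SCR. All SCRP libraries were below SCR, at 0.747 of the SCR level (log2 fold change -0.42, SE 0.06, adjusted p = 1.81e-05). The smaller rises of Nfkbie and Relb kept their direction without 1 library, but their calls were not stable. Nfkbie had 51.5, 53.3 and 53.8 CPM in SCRP, against 48.2, 45.6 and 43.7 CPM in SCR (1.15-fold, adjusted p = 0.0223). The groups did not overlap, but the call was lost without SCR replicate 2 or 3 or SCRP replicate 2 or 3 (edgeR adjusted p between 0.0586 and 0.101), and the authors' deposited table gives a false discovery rate of 0.0747. Relb had 49.2, 48.6 and 50.4 CPM in SCRP, against 45.3, 39.0 and 43.5 CPM in SCR (1.16-fold, adjusted p = 0.0463). The groups did not overlap, but the call was lost with DESeq2 (adjusted p = 0.0505) and without SCR replicate 2 or 3 or SCRP replicate 1, 2 or 3 (edgeR adjusted p between 0.0788 and 0.187), and the authors' deposited table gives 0.17.

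Of the genes that did not pass, Nfkb2 had 271, 258 and 242 CPM in SCRP, against 255, 246 and 247 CPM in SCR. These libraries overlapped, and the 95% interval of the fold was 0.959 to 1.10 (adjusted p = 0.538). Birc3 had 135, 118 and 133 CPM in SCRP, against 142, 129 and 141 CPM in SCR, also overlapping, with an interval of 0.862 to 1.02 (adjusted p = 0.228). Rela had 72.5, 81.7 and 76.4 CPM in SCRP, against 75.2, 70.3 and 74.1 CPM in SCR, again overlapping, with an interval of 0.971 to 1.13 (adjusted p = 0.331). Nfkb1 had 149.6, 133 and 148 CPM in SCRP, against 162, 153 and 151 CPM in SCR, where each SCRP library was lower than each SCR library and the interval was 0.857 to 0.998 (adjusted p = 0.103). Beside these values, Nfatc1, the master transcription factor of osteoclasts, was at 171 CPM in SCRP, 469.9 CPM in SCR and 57.0 CPM in SC.

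Set against cells without RANKL, SCRP cells had higher levels of most of these genes. In SCRP against SC, 9 of the 10 genes were higher, none was lower, and Rela did not pass (adjusted p = 0.511, 95% interval of the fold 0.897 to 1.05), where 28.6% of all genes tested were called higher and 56.0% either way. The folds were 5.78 for Birc3, 5.23 for Nfkb2, 4.17 for Nfkbie, 3.26 for Relb and 3.15 for Nfkbia. They were 1.93 for Map3k14, 1.53 for Nfkbiz, 1.16 for Rel and 1.13 for Nfkb1, with adjusted p between 3.82e-15 and 0.0100 over the 9 genes. The libraries did not overlap for 9 of the 10 genes, all but Rela, where 61.5% of all genes tested had no overlap. This comparison shares its SCRP libraries with SCRP against SCR and its SC libraries with SCR against SC.

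Per exon length, Nfkbia was the most abundant of the 10 transcripts in every group, at 146 RPKM in SCRP, 126 RPKM in SCR and 42.9 RPKM in SC, and Nfkbiz the least, at 2.04, 1.08 and 1.24 RPKM in these 3 groups. The order between them differed. In SCRP it was Nfkb2 (52.3 RPKM), Birc3 (24.0), Rela (23.4), Nfkbie (16.2), Relb (11.9), Nfkb1 (11.1), Rel (7.49) and Map3k14 (6.05), where Birc3 and Rela overlapped. In SCR the RPKM order was Nfkb2 (50.5), Birc3 (25.4), Rela (22.1), Nfkbie (14.0), Nfkb1 (11.9), Relb (10.2), Rel (9.97) and Map3k14 (4.32), where Relb and Rel overlapped. In SC it was Rela (22.4 RPKM), Nfkb2 (9.30), Nfkb1 (9.17), Rel (5.98), Birc3 (3.85), Nfkbie (3.62), Relb (3.39) and Map3k14 (2.91). In SC Nfkb2 overlapped with Nfkb1, and each of Birc3, Nfkbie and Relb overlapped with the next in the order. Within single SC libraries, Birc3 was above Nfkbie and Relb above Map3k14 in every library. Nfkb2 against Nfkb1 and Nfkbie against Relb differed in direction between libraries. Differences between neighbours in the order were not tested.

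The make-up of the 5 subunit transcripts was read as each subunit's share of their summed RPKM, which does not depend on the scaling of the library. Nfkb2 made up 48.2% ± 0.468 in SCR and 18.5% ± 0.507 in SC (SD, n = 3 each), a difference of 29.7 percentage points (exact permutation p = 0.1, two-sided). Rela made up 21.1% ± 0.335 in SCR and 44.6% ± 0.503 in SC. Relb was the other subunit with a larger share, at 9.71% in SCR and 6.75% in SC. Nfkb1 made up 11.4% in SCR and 18.3% in SC, and Rel 9.53% in SCR and 11.9% in SC. None of the 5 shares overlapped between the groups, and each exact p was 0.1, also after adjustment over the 5 subunits. This is the smallest p that 3 against 3 libraries can give, so no share could pass 0.05. The 5 shares are parts of the same sum, so a larger Nfkb2 share leaves less for the others, and they are not separate results. Rela itself was at 22.1 RPKM in SCR and 22.4 RPKM in SC, and the levels of Nfkb1 and Rel were higher in SCR although their shares were smaller. With pterosin B, Rel made up 7.06% ± 0.521 in SCRP and 9.53% ± 0.646 in SCR, and Relb 11.2% ± 0.399 in SCRP and 9.71% ± 0.529 in SCR. Nfkb1 made up 10.5% in SCRP and 11.4% in SCR. These 3 shares did not overlap (exact permutation p = 0.1 each, 0.167 after adjustment). Nfkb2 made up 49.3% in SCRP and 48.2% in SCR (exact permutation p = 0.5), and Rela 22.0% in SCRP and 21.1% in SCR (0.4), both overlapping.

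**Figure D3:**
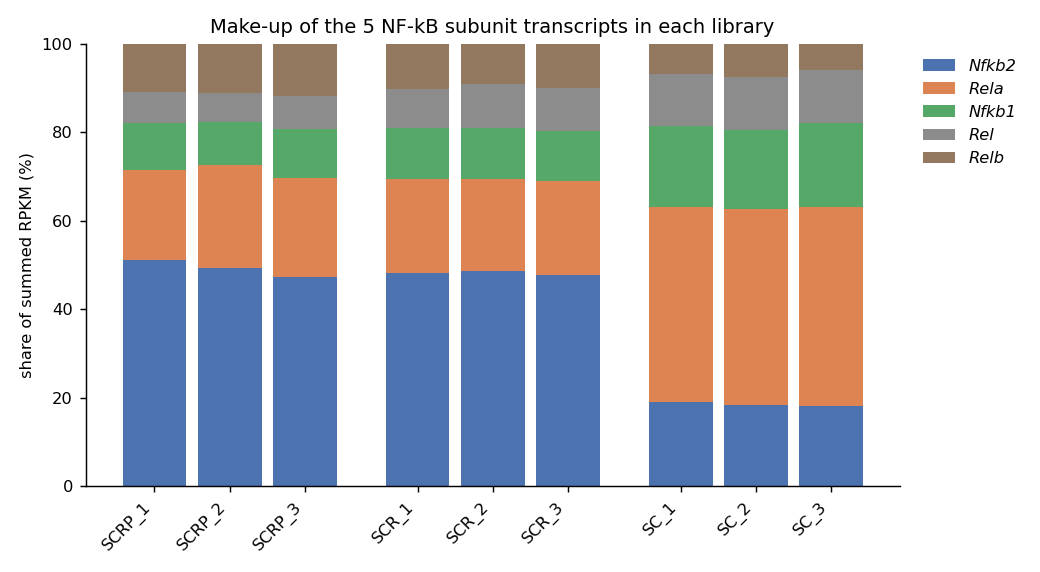
Share of each subunit in the summed RPKM of Nfkb1, Nfkb2, Rel, Rela and Relb, in percent, stacked for each library of SCRP, SCR and SC. Rela is the largest share in the SC libraries (mean 44.6%), and Nfkb2 in the SCRP (49.3%) and SCR (48.2%) libraries.

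Intron reads give a second readout of the same libraries, since they come mostly from RNA that is not yet spliced. They ranged from 3211716 to 4282065 per library, and all 10 genes were among the 12665 genes tested with the same edgeR test, whose Benjamini-Hochberg adjusted p is given in what follows. In SCR against SC, 7 of the 10 genes were higher in intron reads and none lower, where 16.3% of all genes tested were called higher and 31.6% either way. The libraries did not overlap for 8 of the 10, where 43.5% of all genes tested had no overlap. Birc3 rose 6.87-fold (log2 fold change 2.78, SE 0.09, adjusted p = 2.97e-18), Nfkbie 4.60-fold, Nfkb2 3.56-fold, Relb 2.62-fold, Nfkbia 2.37-fold and Rel 1.78-fold, and the call for Nfkbiz is given below. Nfkb1 (log2 fold change 0.25, adjusted p = 0.0572), Rela (0.28, 0.268) and Map3k14 (-0.18, 0.457) did not pass. For Map3k14, whose exon reads rose 1.39-fold, the 95% interval of the intron fold was 0.695 to 1.12. With pterosin B (SCRP against SCR), Rel was lower in intron reads at a fold of 0.700 (log2 fold change -0.52, SE 0.13, adjusted p = 0.00600). Relb was higher at 1.31-fold (log2 fold change 0.38, adjusted p = 0.0488), and the other 8 genes did not pass, where 6.21% of all genes tested were called higher and 7.84% lower. The Relb call was lost without SCR replicate 1 or 3 or SCRP replicate 1 or 2 (edgeR adjusted p between 0.0995 and 0.256) and with the TMM-scaled totals of the exon fit (0.0675), and its libraries overlapped. The intron levels of SCRP and SCR did not overlap for 6 of the 10 genes, where 30.1% of all genes tested had no overlap. For Map3k14 the intron log2 fold change in SCRP against SCR was 0.40 (95% interval of the fold 1.04 to 1.67, adjusted p = 0.115).

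Nfkbiz was the gene whose exon and intron reads passed the test in opposite directions with RANKL. It had 136, 107 and 141 intron reads in SCR libraries, against 57, 86 and 66 in SC libraries, and 295, 222 and 293 exon reads in SCR, against 314, 263 and 313 in SC. Intron reads were thus higher in each SCR library than in each SC library, at 1.57-fold in the fit (log2 fold change 0.65, SE 0.23, adjusted p = 0.0283), while exon reads had a log2 fold change of -0.29. Neither call was stable. The intron call was lost without SC replicate 1 or 3 or SCR replicate 2 or 3 (edgeR adjusted p between 0.0561 and 0.164), and the exon call in the settings listed above. The intron share of its reads was 32.2% ± 0.549 in SCR and 19.1% ± 4.87 in SC (SD, n = 3 each, exact permutation p = 0.1, the smallest possible, and 0.2 adjusted over the 10 genes). In SCRP the share was 24.9% ± 0.602, below SCR in every library (exact permutation p = 0.1, adjusted p = 1). Over all genes the intron share was 8.45% in SCRP, 7.92% in SCR and 7.28% in SC. Birc3 had the highest intron share of the 10 genes, at 42.6% in SCRP, 43.4% in SCR and 39.7% in SC.

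**Figure D4:**
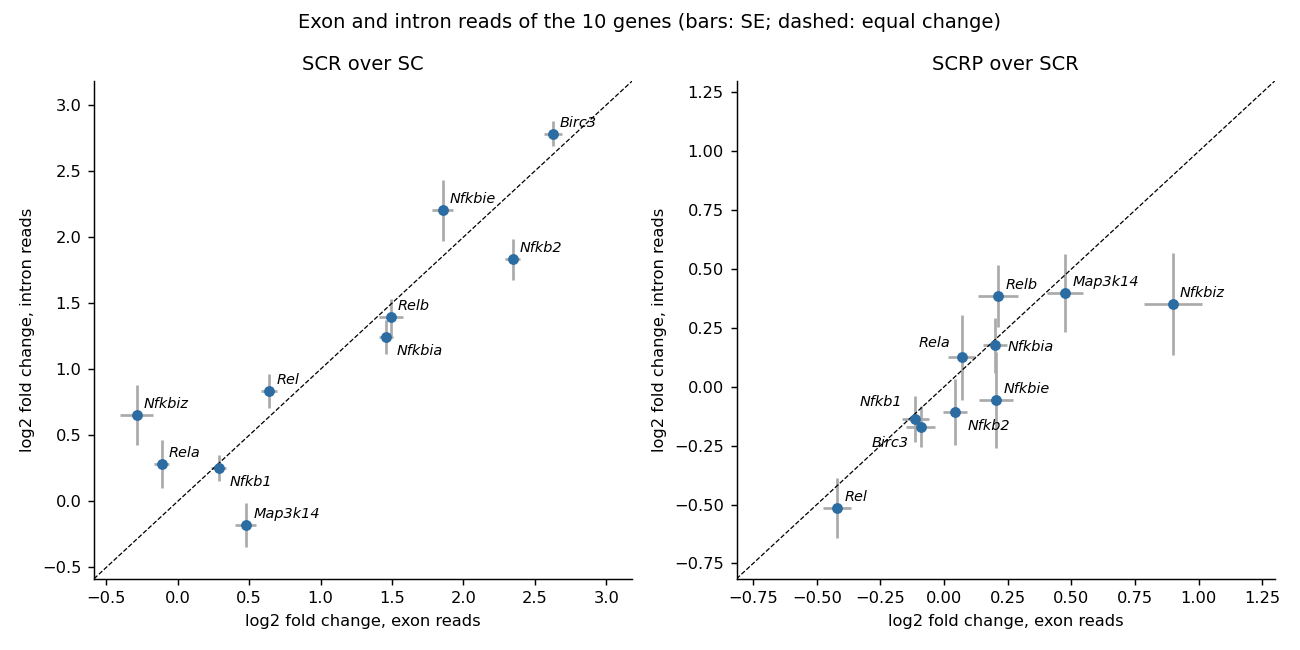
Log2 fold change of intron reads against that of exon reads for the 10 genes, with SE bars and a dashed line of equal change, for SCR over SC and for SCRP over SCR. In SCR over SC most genes lie near the line, while Nfkbiz (-0.29 in exon and 0.65 in intron reads) and Map3k14 (0.48 and -0.18) lie on opposite sides of it.

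The rest of the pathway was read from 4 lists with 76 genes, of which 70 were tested. In SCR against SC, 27 of the 70 were higher and 27 lower, and in SCRP against SCR 14 were higher and 15 lower. Among all genes tested, 30.7% were higher and 28.4% lower in SCR against SC, and 17.9% higher and 19.9% lower in SCRP against SCR, so the pterosin B counts of the 70 are near the background. The receptors and adaptors held 9 higher and 7 lower genes of 17 with RANKL (30.7% and 28.4% of all genes tested). Traf1, an adaptor that is itself a classical NF-kB target, had 123, 109 and 114 CPM in SCR, against 0.766, 0.629 and 0.641 CPM in SC, a rise of 169-fold (log2 fold change 7.40, SE 0.09, adjusted p = 1.13e-17). It was nearly silent in every SC library, and pterosin B moved it a further 1.15-fold (134 ± 5.68 CPM in SCRP and 116 ± 6.89 CPM in SCR, adjusted p = 0.00593). Traf2, which together with TRAF3 and cIAP proteins holds NIK low, rose 2.50-fold with RANKL. The receptors Cd40 (log2 fold change -2.23) and Tnfrsf1b (-1.17) fell with RANKL. In SCRP against SCR, 2 of the 17 were higher and 3 lower (17.9% and 19.9% of all genes tested, no more than the background), with Tnfrsf1b at 0.35, Traf5 at -0.52 and Traf6, the adaptor of RANK, at -0.30 on the log2 scale.

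Of 18 kinase and ubiquitin ligase genes, 3 were higher and 7 lower in SCR against SC (30.7% and 28.4% of all genes tested), and 6 higher and 2 lower in SCRP against SCR (17.9% and 19.9%). Ikbke, a kinase related to the IkB kinases, had 32.4 ± 2.70 CPM in SCR and 92.4 ± 2.29 CPM in SC (SD, n = 3 each, log2 fold change -1.52, adjusted p = 1.89e-12). With pterosin B it had 68.4 ± 1.26 CPM in SCRP, against 32.4 CPM in SCR, a rise of 2.12-fold (adjusted p = 7.93e-10). Ikbkg, the regulatory subunit NEMO of the canonical kinase complex, had 168 ± 3.99 CPM in SCR and 98.1 ± 2.03 CPM in SC (log2 fold change 0.77). With pterosin B it had 88.8 ± 3.31 CPM in SCRP, against 168 CPM in SCR, at 0.529 of the SCR level (adjusted p = 2.37e-10). Tank, an adaptor of the IkB-related kinases, rose with RANKL (log2 fold change 1.39) and fell with pterosin B (-0.41), and Map3k3 fell with RANKL (-0.71) and rose with pterosin B (0.52).

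The 12 other IkB and feedback genes held 8 higher and 2 lower genes in SCR against SC (30.7% and 28.4% of all genes tested), among them Bcl3 (log2 fold change 1.41), an IkB family coactivator of p50 and p52, Tnip1 (1.38), Nfkbid (0.98) and Otud7b (0.94). In SCRP against SCR, 1 was higher and 4 lower (17.9% and 19.9% of all genes tested). Irak3, a brake on Toll-like receptor signalling, rose 1.68-fold, while Tnfaip3, which encodes the brake A20, had 38.0 ± 3.98 CPM in SCRP and 62.8 ± 2.87 CPM in SCR (log2 fold change -0.73, adjusted p = 1.28e-06). Pdlim2 (-0.41) and Tnip1 (-0.28) also fell. Of 29 textbook targets 23 were tested, and 7 were higher and 11 lower in SCR against SC (30.7% and 28.4% of all genes tested). The lower ones included Ccl4 (-3.37), Bcl2l1 (-2.48), Ccl2 (-2.38, with 72.7% of its reads unique) and Ccl3 (-2.25). In SCRP against SCR, 5 of the 23 were higher and 6 lower, near the 17.9% and 19.9% of all genes tested. Ccl4 (1.20) and the survival gene Bcl2l1 (0.86) rose, and the stress gene Gadd45b (-1.10) and the adhesion gene Icam1 (-0.45) fell. With RANKL, Gadd45b (0.74) and Icam1 (1.09) were among the 7 higher targets, and Ccl4 and Bcl2l1 among the 11 lower ones.

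**Figure D5:**
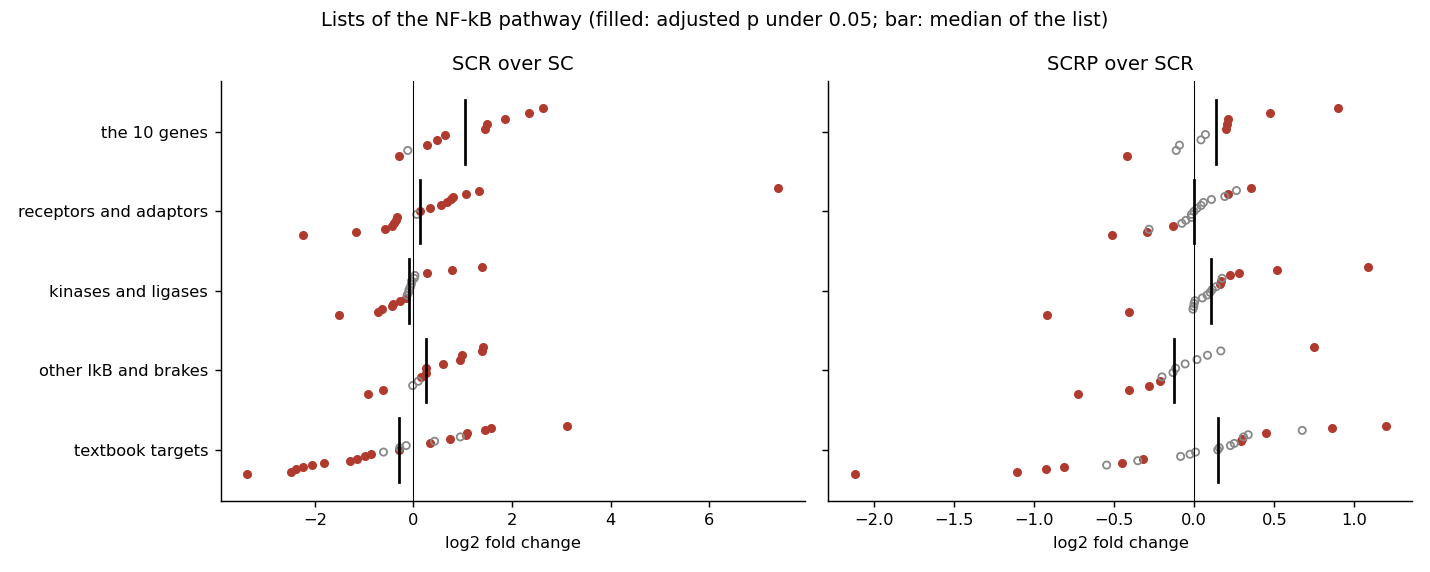
Log2 fold change of each tested gene of the 10 core genes and of the 4 pathway lists, for SCR over SC and for SCRP over SCR, each on its own axis, with filled points for an adjusted p under 0.05 and a bar at the list's median. Traf1 is the point near 7.40 among receptors and adaptors, and the medians in SCR over SC are 1.05 for the 10 core genes and -0.29 for the textbook targets.

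By distance in the pair of log2 fold changes (SCR over SC and SCRP over SCR, 9 libraries in all) among 9727 genes of at least 5 CPM on average, the genes closest to Nfkb2 were Il2rg (distance 0.158, 44.2% of its reads unique), Rnf19b (0.161) and Fgr (0.213). Closest to Relb were Fam83f (0.135), Bcl3 (0.155), which is also on the list of feedback genes, and Sema4d (0.182). Closest to Map3k14 were Cbx5 (0.0282), Adck5 (0.0445) and Zfp951 (0.0522). Closest to Birc3 were Il2rg (0.172), Cacng8 (0.191) and Slc5a3 (0.286, with 2.49% of its reads unique).

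In the knockout experiment Sik3 itself was at 23.9, 17.6 and 19.4 CPM in KO libraries, against 58.3, 59.4 and 56.0 CPM in WT libraries, lower in each KO library. All 2275 rows of the knockout table carry a false discovery rate under 0.05 and a fold of at least 2 in the authors' deposited table. The 10 core genes have no row in it, so their levels in KO and WT cells were not analysed here. Of the 76 genes of the pathway lists, 16 are in it and were tested, 12 higher and 4 lower in KO, where 48.3% of the 1773 genes tested were called higher, 51.3% lower and 99.5% either way. Since only genes that the authors called are listed, these calls are not independent evidence, and the directions are given as a description.

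Ikbke had 85.9 ± 0.294 CPM in KO and 30.9 ± 0.485 CPM in WT (log2 fold change 1.47), Irak3 had 32.4 ± 0.991 CPM in KO and 14.5 ± 0.904 CPM in WT (1.16), and Cd40 had 10.7 ± 1.15 CPM in KO and 3.53 ± 0.458 CPM in WT (1.61, SD, n = 3 each). The 12 textbook targets in the table included Ccl4 (log2 fold change 2.66, SE 0.15), Ccl2 (2.41, SE 0.05), Ier3 (2.09, SE 0.10) and Ccl3 (2.02, SE 0.11), with Bcl2l1 at 2.00 and Tnf at 1.82. Cxcl2 was near the limit of detection, at 1.71 ± 0.244 CPM in KO and 0.197 ± 0.137 CPM in WT. The 4 lower genes were Ptgs2 (-1.59), Tnfrsf11a (-1.43), Cxcl3 (-1.41) and Gadd45b (-1.37), of which Ptgs2 and Cxcl3 were under 5 CPM in both groups. Tnfrsf11a encodes RANK, and its locus carries the Cre of the KO mice. In the pterosin B experiment, which shares no library with the knockout experiment, 6 of the 12 higher genes were also called higher in SCRP against SCR (Ikbke, Irak3, Tnf, Cxcl2, Ccl4 and Bcl2l1) and the other 6 did not pass. Over all 831 genes called higher in KO and tested in both experiments, 44.6% were called higher in SCRP against SCR. Of the 4 lower genes, 3 were also called lower (Tnfrsf11a, Ptgs2 and Gadd45b) and Cxcl3 did not pass, where 59.6% of all 829 genes called lower in KO were called lower in SCRP against SCR. The shares of the listed genes are thus near those of the whole knockout table. The listed genes called in both experiments changed less in SCRP against SCR than in KO against WT. These sizes cannot be compared evenly, since knockout genes are listed only at a fold of at least 2. Calls in SCRP against SCR had no such limit on the fold. The log2 fold change in SCRP against SCR was -0.13 for Tnfrsf11a (edgeR adjusted p = 0.0401), 0.30 for Tnf and 0.45 for Cxcl2. RANKL was given for 2 days in the knockout experiment and for 3 days in the pterosin B experiment.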

How the data were processed

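Directional libraries were made from total RNA after removal of ribosomal RNA, per the labels' protocols. The submitters' processing notes name GRCm38 (mm10) as genome build, while aligner, counting program and counted strand are not given in the sources. The deposited counts are whole exon, unique exon and intron reads per gene, per the file headers. The deposited RPKM values were scaled by the authors for exon length and library total. The authors' EDGE test with tagwise dispersions gave the deposited p-values (false discovery rates) and the deposited score, a signed fold, per the file headers. Gene positions and exon lengths are other deposited values. Not used here were 174 more per-sample columns. Of deposited counts from 1 to below 40, 75.3% to 79.0% were even in the pterosin B libraries, against 45.5% to 50.7% in the knockout libraries, so halved counts were an alternative.

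The test of counts was edgeR's quasi-likelihood test (edgeR 4.0.16, R 4.3.3, filterByExpr, TMM, Benjamini-Hochberg adjustment), in 1 fit of the 9 SC, SCR and SCRP libraries with 6 residual degrees of freedom. Intron reads were fitted in the same way. The SE of a log2 fold change was its size divided by the square root of the F statistic. The knockout fit used library totals recovered from counts, exon lengths and RPKM, with 4 residual degrees of freedom and no TMM, since its table is filtered. Subunit and intron shares were compared with exact permutation tests. DESeq2 1.42.0 and other settings were alternatives. The edgeR script was tested on simulated data. Gene positions of all 10 genes equal those of GENCODE release M21. Of their exon reads, 99.9% of Nfkb2's and 100% of the others' were unique. On the opposite strand, Nfkb2 (76140 exon reads over the 9 libraries) overlaps Psd (3270 exon reads) and AC114539.1, for which no reads are listed. On the same strand, Map3k14 overlaps 1700028N14Rik (18 exon reads over the 9 libraries) and Nfkb1 overlaps Gm43430 (0 reads). Tables and plots used Python 3.11.15, pandas 2.3.3, numpy 2.4.6 and matplotlib 3.10.9.

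The members and the lists were chosen with earlier results of these data known. All 10 members are named. Of each pathway list, up to 4 genes are named in SCR against SC and up to 4 in SCRP against SCR. They have the largest absolute log2 fold change among genes with an adjusted p under 0.05 and at least 5 CPM on average. For SCRP against SC the pathway lists are not described. The 3 genes nearest to each of Nfkb2, Relb, Map3k14 and Birc3 are named too. A unique share is given for named genes under 80%. The genes of the knockout paragraphs were described after their values were seen.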

Additional observations from a re-analysis of the deposited data

How the results depend on the processing

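The counts of core genes called (9 in SCR against SC, 6 in SCRP against SCR and 9 in SCRP against SC) stayed within 1.5 times under DESeq2, its size factors, no filter, unique reads, halved counts, 2-group fits and the replicate block. Without 1 library each they ranged from 8 to 9, from 4 to 6 and from 9 to 9 calls, and the calls over all genes from 7567 to 7800, 4396 to 4767 and 7039 to 7278. The intron calls without 1 library ranged from 6 to 7 of the core genes in SCR against SC and from 1 to 2 in SCRP against SCR (3461 to 3653 and 1298 to 1601 over all genes). With TMM-scaled totals of the exon fit, 1 core gene was called in intron reads of SCRP against SCR in place of 2. The 16 knockout calls ranged from 15 to 16 without 1 library (1758 to 1830 over all genes), as Cxcl3 was lost without WT replicate 1 (edgeR adjusted p = 0.0636) and Vcam1 without KO replicate 3 (0.0533). The difference in the Nfkb2 share ranged from 29.5 to 30.0 percentage points for SCR minus SC and from 0.112 to 1.99 for SCRP minus SCR. Leaving out 1 library turned the sign of 4 log2 fold changes that had not passed: Rela in SCRP against SC (-0.094 to 0.0009, above 0 without SCRP replicate 1) and, in intron reads, Map3k14 in SCR against SC (-0.36 to 0.0024, above 0 without SC replicate 1), and in SCRP against SCR Nfkbie (-0.26 to 0.10, above 0 without SCRP replicate 2 and, at 0.051, without SCR replicate 3) and Rela (-0.028 to 0.23, below 0 without SCRP replicate 1). Intron reads of Nfkb1 in SCR against SC passed with TMM-scaled totals (edgeR adjusted p = 0.0435) and DESeq2 (0.0219). The cause of these shifts was not tested. Same-numbered libraries of the pterosin B experiment had correlations of deviations between -0.063 and 0.143, so the numbers were not taken as pairs, and the replicate block ended 1 call on a core gene (Nfkbiz in SCR against SC, edgeR adjusted p = 0.0572). Depth limits most what can be said of Nfkbiz, with 3217 exon reads over 9 libraries.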
